A study of Homo sapiens with 4 samples.

Results

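A set of 10 genes that read out signalling through the ERK MAP kinases were followed, chosen by gene symbol from the tables of all 4 libraries. They were the phosphatase genes DUSP1, DUSP4, DUSP5 and DUSP6, the inhibitor genes SPRY2, SPRY4 and SPRED1, and the transcription factor genes EGR1, ETV4 and ETV5. All 10 were found among the 25343 symbols listed, and all 10 passed the filter on low values in both lines. The choice of the 10 genes was made with earlier results of these data known.

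The libraries came from Huh7 and PLC/PRF/5, lines established from human hepatocellular carcinoma, each carrying, by lentivirus, either a short hairpin RNA to SCD1 (shSCD1) or a non-target control vector (NTC). SCD1, gene symbol SCD, is the desaturase that turns saturated into monounsaturated fatty acids, and the study asked which genes differ when it is depleted. The 4 groups were Huh7 shSCD1, Huh7 NTC, PLC/PRF/5 shSCD1 and PLC/PRF/5 NTC, with 1 library each. All cells were transduced, selected with puromycin and grown in serum. The sample titles name the hairpin only as shSCD1, so the loss of SCD and any other action of a hairpin cannot be told apart.

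ERK is switched on when growth factor receptors activate RAS, RAF and MEK in turn. Active ERK drives immediate early genes such as EGR1 within minutes and, with a delay, the PEA3 factors ETV4 and ETV5 and a set of inhibitors. The dual-specificity phosphatases take the activating phosphates off MAP kinases, and Sprouty and SPRED proteins act upstream, between the receptor and RAF. The mRNA of these genes is used as a proxy for ERK output, while phosphorylated ERK itself was not measured here.

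Levels are in TPM, estimated read counts divided by transcript length and scaled to a common library total, so genes can be compared within a library. The depth of each library is unknown, and with 1 library per group there is no replicate spread for any level. SCD stood at 137 TPM in Huh7 shSCD1 and 1755 TPM in Huh7 NTC, and at 178 TPM in PLC/PRF/5 shSCD1 and 1111 TPM in PLC/PRF/5 NTC. Of 10 hepatocyte lineage markers, 10 reached 1 TPM in both Huh7 libraries and 9 in both PLC/PRF/5 libraries, where TTR was at 0.16 TPM with shSCD1 and 0.41 TPM with NTC. Their summed level was 30612 and 31762 TPM in Huh7 shSCD1 and NTC, and 5777 and 5747 TPM in PLC/PRF/5 shSCD1 and NTC. Single markers within these sums differed in both directions. ALB had a log2 difference between shSCD1 and NTC of 0.69 in Huh7 and -0.73 in PLC/PRF/5, AFP of -0.58 and -1.20, and KRT18 of 0.30 and 0.48. In the limma fit described further on, 0 of the 10 passed after adjustment. At an unadjusted p under 0.05, reached by 18% of all genes, AFP, APOA1, APOB and SERPINA1 were lower and KRT8 and KRT18 higher. The 12 markers of leukocytes, endothelium and stromal cells summed to 23.4 and 27.8 TPM in Huh7 shSCD1 and NTC, and to 16.7 and 33.9 TPM in PLC/PRF/5 shSCD1 and NTC. CD68, a macrophage marker, was the highest of them in PLC/PRF/5, at 13.0 TPM with shSCD1 and 27.0 TPM with NTC. KDR was listed at 0 in all 4 libraries, DES in both Huh7 libraries and PLC/PRF/5 shSCD1, and CD3E in both NTC libraries. The part of these markers in the differences was not tested. In such bulk RNA, fewer cells of a type and less RNA per cell cannot be told apart.

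In short, 8 of the 10 genes were lower with shSCD1 in Huh7, where 39.7% of all genes were, and 9 were higher with shSCD1 in PLC/PRF/5, where 63.4% of all genes were. DUSP1 was higher with shSCD1 in both lines, and DUSP4 was higher in Huh7 and nearly level in PLC/PRF/5. The opposed genes ranged from EGR1, the most separated, to ETV4, which differed little in either line. A knockdown difference within a line rests on single libraries and has no replicate check. Because the genes were chosen with earlier results of these data known, the shares of all genes are a reference and not a test.

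**Figure D1:**
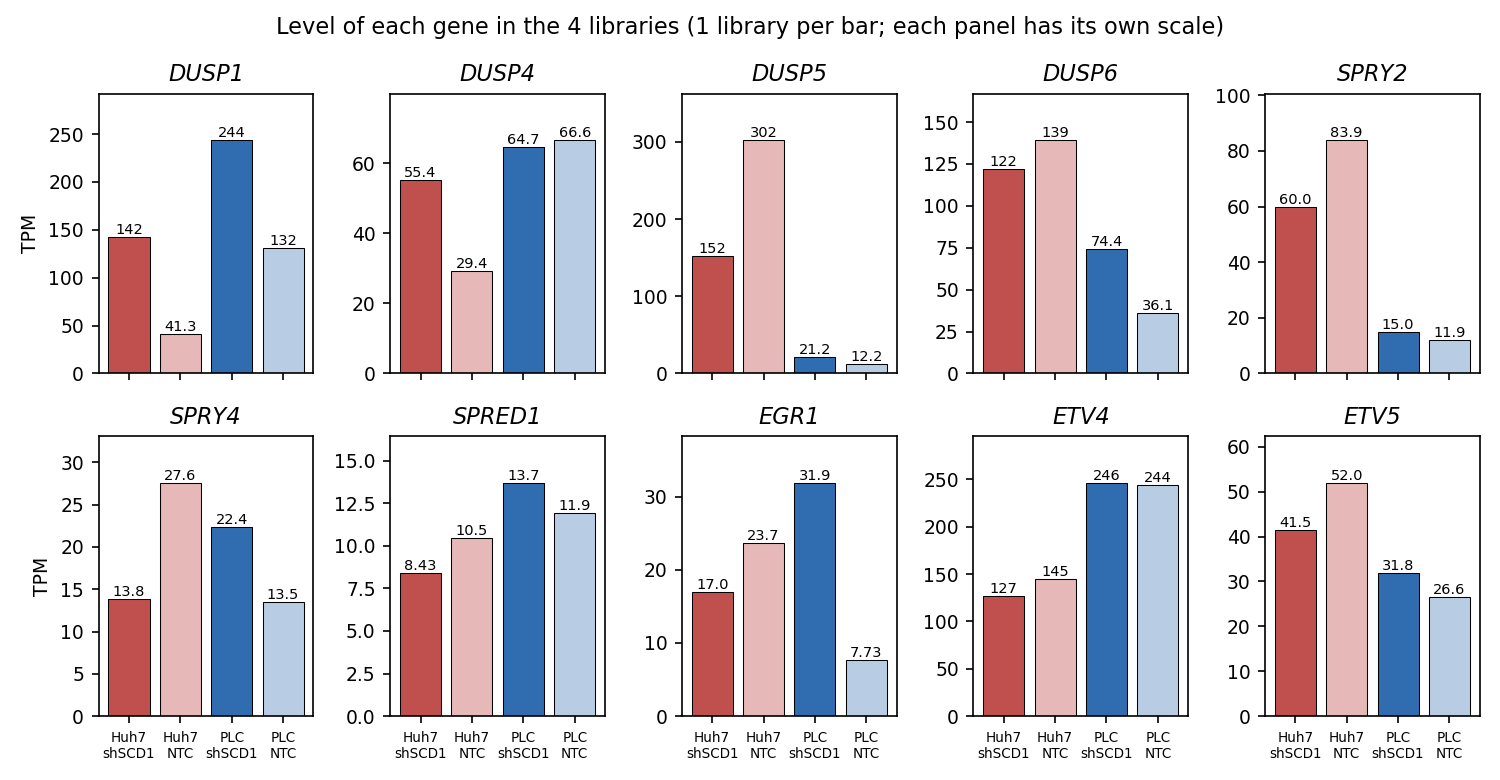
TPM of each gene in the 4 libraries, Huh7 shSCD1, Huh7 NTC, PLC/PRF/5 shSCD1 and PLC/PRF/5 NTC from left to right, 1 library per bar and 1 scale per panel. DUSP5 and SPRY2 are high in both Huh7 libraries, and EGR1 is highest in PLC/PRF/5 shSCD1 at 31.9 TPM and lowest in PLC/PRF/5 NTC at 7.73 TPM.

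DUSP1 encodes a nuclear phosphatase induced by growth factors and by stress that acts on p38 and JNK as well as ERK. Its level was 142 TPM in Huh7 shSCD1 and 41.3 TPM in Huh7 NTC, and 244 TPM in PLC/PRF/5 shSCD1 and 132 TPM in PLC/PRF/5 NTC. Both knockdown libraries stood above both control libraries, and no other of the 10 genes had that order. Fold changes are given as log2((shSCD1 TPM + 1)/(NTC TPM + 1)), which shrinks the change of genes at low levels. On it DUSP1 was at 1.76 in Huh7, where 70 of 13485 genes had a higher value, and at 0.88 in PLC/PRF/5, where 325 of 13057 did.

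DUSP4, an inducible nuclear phosphatase, was at 55.4 TPM in Huh7 shSCD1 and 29.4 TPM in Huh7 NTC, and at 64.7 TPM in PLC/PRF/5 shSCD1 and 66.6 TPM in PLC/PRF/5 NTC. The Huh7 knockdown library thus lay closer to the PLC/PRF/5 libraries than its own control did. The log2 fold change was 0.89 in Huh7 and -0.04 in PLC/PRF/5.

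DUSP5 and DUSP6 encode phosphatases specific for ERK, the first in the nucleus and the second in the cytoplasm. DUSP5 was at 152 TPM in Huh7 shSCD1 and 302 TPM in Huh7 NTC, and at 21.2 TPM in PLC/PRF/5 shSCD1 and 12.2 TPM in PLC/PRF/5 NTC. It was the highest of the 10 genes in both Huh7 libraries and ranked 8 and 7 of 10 in PLC/PRF/5 shSCD1 and NTC. Its log2 fold change of -0.99 in Huh7 was just short of 2-fold, with 210 of 13485 genes lower, and it was 0.75 in PLC/PRF/5.

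DUSP6 was at 122 TPM in Huh7 shSCD1 and 139 TPM in Huh7 NTC, and at 74.4 TPM in PLC/PRF/5 shSCD1 and 36.1 TPM in PLC/PRF/5 NTC. The log2 fold change was -0.19 in Huh7 and 1.03 in PLC/PRF/5, where 207 of 13057 genes were higher. The 4 phosphatase genes together summed to 471 TPM in Huh7 shSCD1 and 512 TPM in Huh7 NTC, and to 404 TPM in PLC/PRF/5 shSCD1 and 246 TPM in PLC/PRF/5 NTC. Most of the Huh7 sum was DUSP5 and DUSP6 in the NTC library, while DUSP1 took the largest share in both PLC/PRF/5 libraries.

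The start region of DUSP1 is shown because it was the gene with a higher level in both knockdown libraries. It spans 250 bases before to 50 bases after the gene's start, from RefSeq on GRCh38.p14, which is not the build the authors used. Capitals mark matches, on either strand, to the cAMP response element TGACGTCA or its core TGACG, AP-1 site TGANTCA, ETS core CCGGAA or CArG box, the centre of the serum response element.
DUSP1, chr5:172771146-172771445, minus strand: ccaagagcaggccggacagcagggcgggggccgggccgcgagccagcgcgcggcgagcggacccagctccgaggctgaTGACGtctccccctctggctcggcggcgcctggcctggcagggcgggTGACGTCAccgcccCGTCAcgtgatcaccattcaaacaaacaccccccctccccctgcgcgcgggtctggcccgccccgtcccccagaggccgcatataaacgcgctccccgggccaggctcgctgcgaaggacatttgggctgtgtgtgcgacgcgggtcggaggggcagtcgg

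The DUSP1 window held 1 full cAMP response element, 125 to 118 bases before the start, a motif found in 1.85% of 35116 RefSeq windows of the same length. Of its 4 TGACG cores, a motif found in 24.6% of windows, 2 lie within that element. No match to the AP-1 site, ETS core or CArG box was found in it. Such matches describe letters and do not show that a factor binds there.

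SPRY2 and SPRY4 encode Sprouty proteins, which restrain signalling from receptor tyrosine kinases, and SPRED1 brings the RAS inhibitor neurofibromin to the membrane. SPRY2 was at 60.0 TPM in Huh7 shSCD1 and 83.9 TPM in Huh7 NTC, and at 14.95 TPM in PLC/PRF/5 shSCD1 and 11.9 TPM in PLC/PRF/5 NTC. Both Huh7 libraries stood far above both PLC/PRF/5 libraries, whichever the arm. The log2 fold change was -0.48 in Huh7 and 0.31 in PLC/PRF/5.

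SPRY4 was at 13.8 TPM in Huh7 shSCD1 and 27.6 TPM in Huh7 NTC, and at 22.4 TPM in PLC/PRF/5 shSCD1 and 13.5 TPM in PLC/PRF/5 NTC. The high libraries were thus the control in Huh7 and the knockdown in PLC/PRF/5, with the other two libraries close together. Its log2 fold change was -0.95 in Huh7, where 238 of 13485 genes were lower, and 0.69 in PLC/PRF/5.

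SPRED1 was the lowest of the 10 genes in both Huh7 libraries, at 8.43 TPM with shSCD1 and 10.5 TPM with NTC. In PLC/PRF/5 it was at 13.7 TPM with shSCD1 and 11.9 TPM with NTC. The log2 fold changes were small, -0.28 in Huh7 and 0.19 in PLC/PRF/5. Summed over the 3 inhibitor genes, the level was 82.2 TPM in Huh7 shSCD1 and 122 TPM in Huh7 NTC, and 51.0 TPM in PLC/PRF/5 shSCD1 and 37.3 TPM in PLC/PRF/5 NTC.

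The start regions of both Sprouty genes are shown, with the same capitals, because the pair was lower with shSCD1 in Huh7 but higher in PLC/PRF/5. For SPRY2, which has 3 RefSeq starts, the most upstream is given. The windows at its other starts held none of the motifs marked in capitals.
SPRY2, chr13:80341077-80341376, minus strand: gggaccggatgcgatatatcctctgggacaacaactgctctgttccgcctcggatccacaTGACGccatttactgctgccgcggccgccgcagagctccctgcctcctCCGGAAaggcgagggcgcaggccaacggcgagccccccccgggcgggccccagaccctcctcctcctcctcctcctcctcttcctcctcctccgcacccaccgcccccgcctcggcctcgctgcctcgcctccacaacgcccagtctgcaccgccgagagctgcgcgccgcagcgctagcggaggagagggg
SPRY4, chr5:142324198-142324497, minus strand: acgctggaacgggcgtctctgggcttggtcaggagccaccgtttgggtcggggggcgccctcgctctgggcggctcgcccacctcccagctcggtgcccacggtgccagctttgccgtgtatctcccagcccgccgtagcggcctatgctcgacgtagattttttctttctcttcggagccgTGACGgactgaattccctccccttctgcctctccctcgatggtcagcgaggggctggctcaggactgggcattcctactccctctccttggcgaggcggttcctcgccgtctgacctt

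Both windows held 1 TGACG core, 190 to 186 bases before the start of SPRY2 and 68 to 64 bases before that of SPRY4. SPRY2 also held 1 ETS core, 142 to 137 bases before the start, a motif found in 17.2% of windows. Neither window held an AP-1 site, found in 7.71% of windows, or a CArG box, found in 1.29%.

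EGR1 encodes a zinc finger factor and is the classic immediate early gene, switched on through serum response factor and its ERK-phosphorylated partners. It was at 17.0 TPM in Huh7 shSCD1 and 23.7 TPM in Huh7 NTC, and at 31.9 TPM in PLC/PRF/5 shSCD1 and 7.73 TPM in PLC/PRF/5 NTC. The PLC/PRF/5 libraries thus held both its highest and its lowest level. The log2 fold change was -0.45 in Huh7 and 1.91 in PLC/PRF/5, where 23 of 13057 genes were higher. In rank among the 10 genes it was 5 in PLC/PRF/5 shSCD1 and 10 in PLC/PRF/5 NTC.

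The EGR1 start region is shown, with the same capitals, for its paired CArG boxes and because its fold change differed most between the lines.
EGR1, chr5:138465229-138465528, plus strand: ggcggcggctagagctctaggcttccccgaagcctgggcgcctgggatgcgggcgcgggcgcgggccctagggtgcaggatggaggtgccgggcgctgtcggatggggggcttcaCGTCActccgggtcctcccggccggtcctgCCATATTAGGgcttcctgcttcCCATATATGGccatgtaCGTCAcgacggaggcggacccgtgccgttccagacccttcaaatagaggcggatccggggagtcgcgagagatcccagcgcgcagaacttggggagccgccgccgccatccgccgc

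The EGR1 window held 2 CArG boxes, 105 to 96 and 83 to 74 bases before the start, and 2 TGACG cores. Of the 10 genes, 6 had a RefSeq window that was used here, and no CArG box was found in the windows of the other 5. DUSP6 and SPRED1 had none of the motifs marked in capitals. The SP1 box GGGCGG and the EGR box GCGGGGGCG, which can overlap each other, were also searched on both strands. The SP1 box was in 5 of the 8 windows of these 6 genes and in 45.0% of all windows, and the EGR box in 1 of 8, overlapping an SP1 box of SPRY2, and in 5.07% of all windows.

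ETV4 and ETV5 encode PEA3 factors of the ETS family. ETV4 was at 127 TPM in Huh7 shSCD1 and 145 TPM in Huh7 NTC, and at 246 TPM in PLC/PRF/5 shSCD1 and 244 TPM in PLC/PRF/5 NTC. It separated by line far more than by arm, and it was the highest of the 10 genes in both PLC/PRF/5 libraries. The log2 fold change was -0.19 in Huh7 and 0.01 in PLC/PRF/5.

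ETV5 was at 41.5 TPM in Huh7 shSCD1 and 52.0 TPM in Huh7 NTC, and at 31.8 TPM in PLC/PRF/5 shSCD1 and 26.6 TPM in PLC/PRF/5 NTC. Both Huh7 libraries were above both PLC/PRF/5 libraries. The log2 fold change was -0.32 in Huh7 and 0.25 in PLC/PRF/5.

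**Figure D2:**
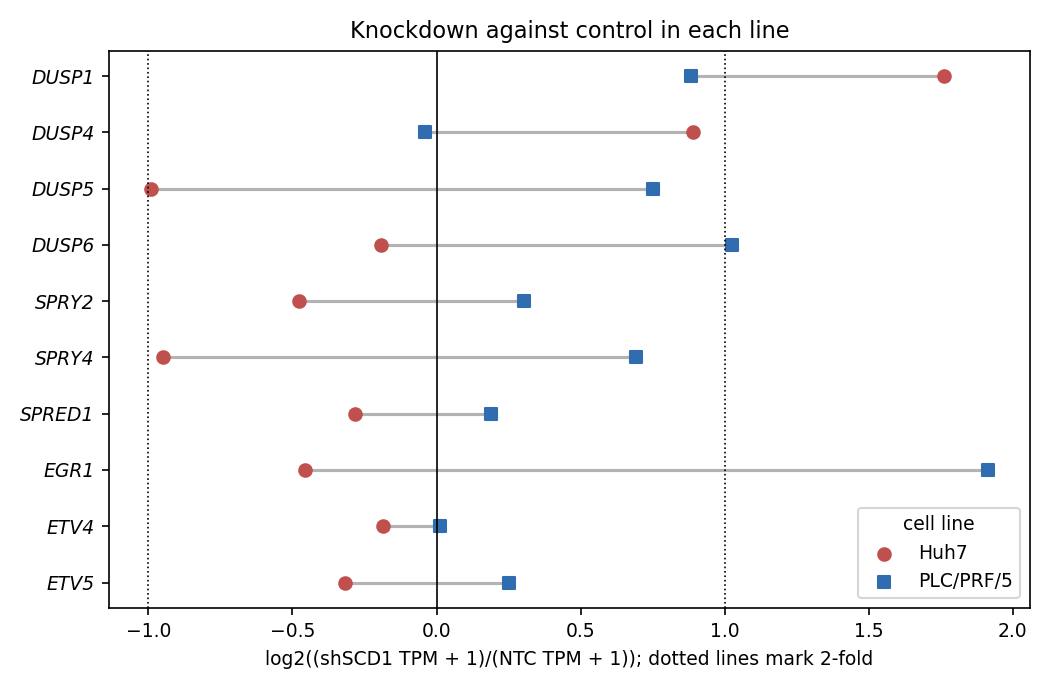
Log2 fold change (shSCD1 over NTC, TPM + 1) of each gene, circles for Huh7 and squares for PLC/PRF/5, joined by a line, with dotted lines at 2-fold. DUSP1 is right of 0 in both lines (1.76 and 0.88), whereas EGR1 (-0.45 and 1.91), DUSP5 (-0.99 and 0.75) and SPRY4 (-0.95 and 0.69) span 0.

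By the size rule of at least 2-fold, 1 of 10 genes, DUSP1, was higher with shSCD1 in Huh7, against 3.1% of all genes considered there, and 0 were lower, against 1.54%. In PLC/PRF/5, 2 of 10, EGR1 and DUSP6, were higher, against 1.72% of all genes, and 0 were lower, against 1.12%. This rule is a size and not a test. When each library was rescaled by its median ratio to the others, the counts were 1 higher and 2 lower in Huh7 (DUSP5 and SPRY4 passed as lower), against 2.57% and 1.91% of all genes, and 1 higher and 0 lower in PLC/PRF/5, against 1.18% and 1.72%. That scaling moved the median of all genes by -0.09 in Huh7 and -0.14 in PLC/PRF/5. The share of higher among all 2-fold genes was 57.3% with it and 66.9% without it in Huh7, and 40.7% and 60.6% in PLC/PRF/5. With it DUSP6 was at 0.88 in PLC/PRF/5, short of 2-fold. At a size of 1.5-fold, 2 were higher and 2 lower in Huh7, against 9.89% and 4.85% of all genes, and 5 were higher and 0 lower in PLC/PRF/5, against 8.07% and 4.01%.

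The median log2 fold change of the 10 genes was -0.30 in Huh7, beside 0.08 for all genes, and 0.50 in PLC/PRF/5, beside 0.10 for all genes. By sign alone, 2 were higher in Huh7, where 60.2% of all genes were, and 1 was lower in PLC/PRF/5, where 36.5% were. Of the 10 genes, 9 had opposite signs in the lines, against 31% of 12064 genes considered in both. Lower in Huh7 but higher in PLC/PRF/5 were 8 of 10, against 16.9% of all genes, and higher in both was 1 of 10, against 46.5%. With median-ratio scaling these counts were 8 of 10, against 32.6%, 7 of 10, against 14.7%, and 1 of 10, against 30.1%, since ETV4 turned to -0.13 in PLC/PRF/5. The comparison of signs was chosen after the values were seen, and the 10 genes with earlier results of these data known. The 10 genes share an upstream pathway and are not independent of each other, and no test of whether the knockdown difference itself differs between the lines is possible with 1 library per group.

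As a measure of how far the lines diverged, the Huh7 fold change minus the PLC/PRF/5 fold change was -2.37 on the log2 scale for EGR1, and 0.0995% of all genes had a lower value. It was -1.74 for DUSP5, with 0.224% of genes lower, and -1.64 for SPRY4, with 0.274% lower. DUSP6 followed at -1.22, SPRY2 at -0.78, ETV5 at -0.57, SPRED1 at -0.47 and ETV4 at -0.20. DUSP1 and DUSP4 lay on the other side, at 0.87 and 0.93. These values place single pairs of libraries and carry no error.

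**Figure D3:**
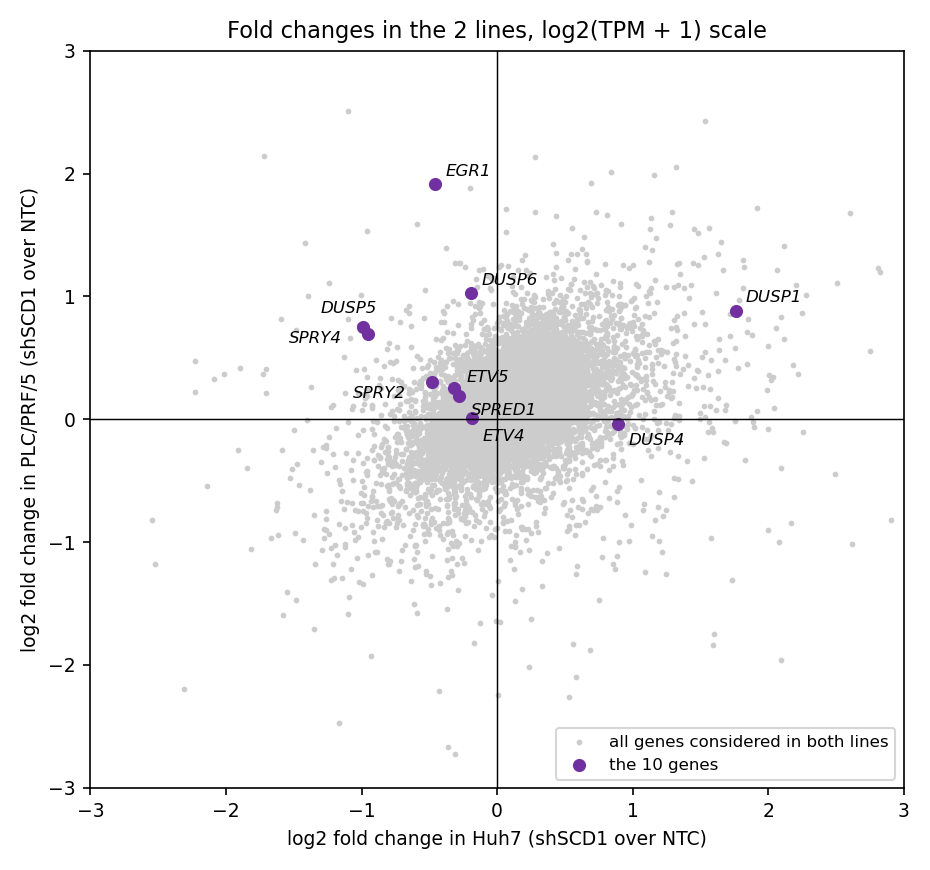
Log2 fold changes (shSCD1 over NTC, TPM + 1) in Huh7 on the x axis and PLC/PRF/5 on the y axis for 12064 genes (grey) and the 10 genes (purple); 10 points lie outside the axes. Of the 10 genes, 8 are in the upper left, with EGR1 at -0.45 and 1.91, and DUSP1 is in the upper right at 1.76 and 0.88.

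The knockdown difference common to both lines was tested with limma on log2(TPM + 1), with the line as a block and Benjamini-Hochberg adjustment over 13813 genes. None of the 10 genes passed at an adjusted p of 0.05, and 0.00724% of all genes did, which was 1 gene. That gene was not SCD, the target, whose mean was -3.15 (limma adjusted p = 0.128). Missing this threshold therefore does not show that a gene was unchanged. At an unadjusted p under 0.05 there was 1 of 10, DUSP1, against 18% of all genes (12.7% higher and 5.24% lower). DUSP1 had a mean log2 fold change of 1.32 with a standard error of 0.22, higher in both lines (limma adjusted p = 0.148, unadjusted p = 0.00221). EGR1 had a mean of 0.73 with a standard error of 0.56 (limma adjusted p = 0.514), and DUSP5 a mean of -0.12 with a standard error of 0.41 (limma adjusted p = 0.895). The other 7 means lay between -0.13 for SPRY4 and 0.43 for DUSP4. A mean near 0 here averages values of opposite sign and does not show that a gene stayed level. The residual has 1 degree of freedom, and limma's empirical Bayes step added 3.71 prior degrees of freedom from all genes. The standard errors and p-values thus reflect both how alike the lines moved and this pooled variance.

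The line itself separated several of these genes. In the same limma fit, 6 of 10 genes differed between Huh7 and PLC/PRF/5 at an adjusted p under 0.05, close to the 59.8% of all genes that did. Higher in Huh7 were 4, against 28.3%, and lower in Huh7 were 2, against 31.5%. SPRY2 was higher in Huh7 by 2.33 on the log2 scale with a standard error of 0.21 (adjusted p = 0.00135), and DUSP5 by 3.65 with a standard error of 0.41 (adjusted p = 0.00224). DUSP6 was higher in Huh7 by 1.31 (limma adjusted p = 0.0167) and ETV5 by 0.66 (limma adjusted p = 0.0254). ETV4 was lower in Huh7, at -0.85 (limma adjusted p = 0.00214), as was DUSP1, at -1.21 (limma adjusted p = 0.0086). DUSP1 lost this call without the term for the arm (limma adjusted p = 0.177), and all 6 lost it without the filter on low values, with adjusted p from 0.0873 to 0.274. DUSP4, SPRY4, SPRED1 and EGR1 did not pass. With 1 library per line and arm, these p-values rest on how alike the gap was in both arms and on the pooled variance. They do not measure the spread between cultures of a line.

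Except for SPRED1 and ETV4, the gap between the lines in log2 level was narrower in the shSCD1 libraries than in the NTC libraries. DUSP5 in Huh7 was 7.17 times its PLC/PRF/5 level with shSCD1 and 24.8 times with NTC, and DUSP6 was 1.64 and 3.86 times. EGR1 and SPRY4 changed places. In the shSCD1 libraries EGR1 was 1.88 times and SPRY4 1.62 times higher in PLC/PRF/5, whereas in the NTC libraries EGR1 was 3.06 times and SPRY4 2.05 times higher in Huh7. These gaps follow from the same 4 values per gene as the fold changes above. The share of all genes with a narrower gap in the shSCD1 libraries was not computed, so the pattern cannot be called particular to these genes.

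**Figure D4:**
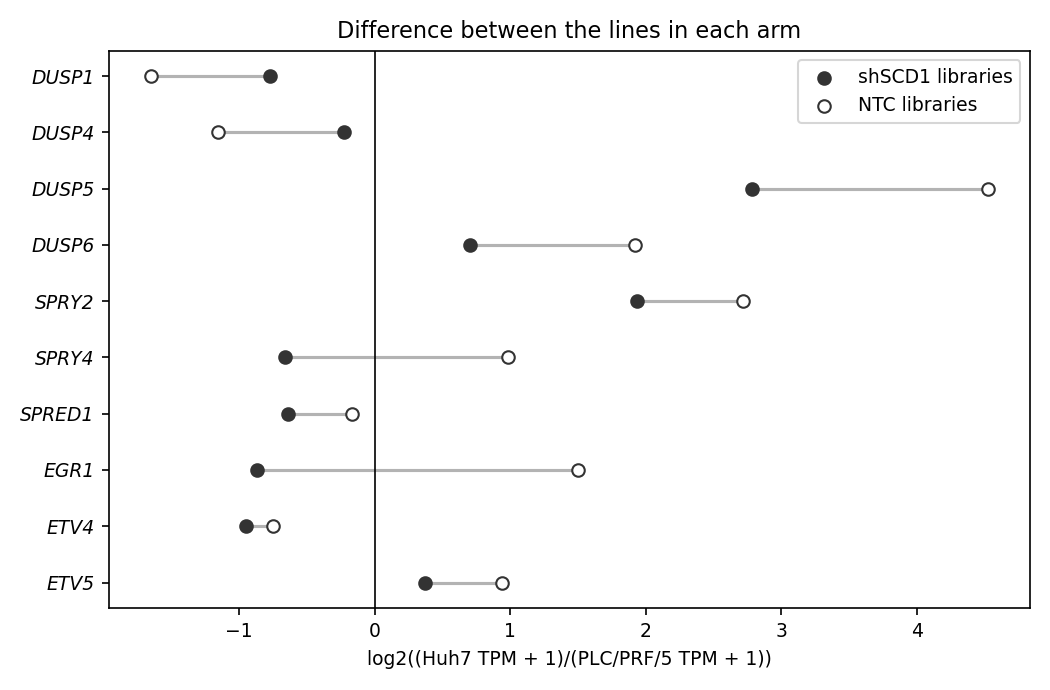
Difference between the lines, log2((Huh7 TPM + 1)/(PLC/PRF/5 TPM + 1)), for each gene in the shSCD1 libraries (filled circles) and the NTC libraries (open circles). DUSP5 is at 2.78 with shSCD1 and 4.53 with NTC, and EGR1 is below 0 with shSCD1 and above 0 with NTC.

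Of the other MAP kinase phosphatase genes, 3 of 5 considered in both lines were higher with shSCD1 in both, against 46.5% of all genes. With median-ratio scaling 3 of 5 were also higher in both, against 30.1% of all genes. The list held DUSP2, DUSP7, DUSP8, DUSP9, DUSP10 and DUSP16, and its median was 0.66 over 6 genes in Huh7 and 0.73 over 5 genes in PLC/PRF/5. DUSP8, which acts on JNK and p38, was at 44.7 TPM in Huh7 shSCD1 and 11.96 TPM in Huh7 NTC, and at 26.1 TPM in PLC/PRF/5 shSCD1 and 11.9 TPM in PLC/PRF/5 NTC. DUSP10, also a JNK and p38 phosphatase, stood at 1.12 on the log2 scale for Huh7 and 0.83 for PLC/PRF/5. DUSP16, named after its values were seen, had 0.91 and 0.73. DUSP9 was at 394 TPM in Huh7 shSCD1 and 333 TPM in Huh7 NTC, but at 10.1 TPM in PLC/PRF/5 shSCD1 and 43.8 TPM in PLC/PRF/5 NTC. In limma 0 of 6 passed after adjustment and 3 had an unadjusted p under 0.05, all 3 higher, against 12.7% of all genes higher.

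Among 12 other ERK output genes, 9 were considered in each line. The median was 0.30 for Huh7 and 0.26 for PLC/PRF/5, or 0.20 and 0.12 with median-ratio scaling. SPRY1, another Sprouty gene, was at 11.4 TPM in Huh7 shSCD1 and 30.9 TPM in Huh7 NTC, and at 36.3 TPM in PLC/PRF/5 shSCD1 and 30.1 TPM in PLC/PRF/5 NTC, the same directions as SPRY2 and SPRY4. FOSL1, an AP-1 factor gene, had a log2 difference of 1.12 for Huh7 and 1.28 for PLC/PRF/5, and the ephrin receptor gene EPHA2 had 0.61 and 0.86. Opposite signs were seen in 4 of 9, each lower in Huh7 but higher in PLC/PRF/5, against 16.9% of all genes, while with median-ratio scaling 3 were so and 2 the reverse. In limma 0 of 9 passed and 4 had an unadjusted p under 0.05, all higher, against 12.7% of all genes higher.

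Of 18 other immediate early genes, 13 were considered in both lines. Higher in both were 9 of 13, against 46.5% of all genes, and 8 of 13 with median-ratio scaling, against 30.1%. Lower in Huh7 but higher in PLC/PRF/5 were 3 of 13, against 16.9%. The median was 0.28 over 13 genes for Huh7 and 0.51 over 14 genes for PLC/PRF/5. FOS, the partner of JUN in AP-1, was at 4.16 TPM in Huh7 shSCD1 and 3.25 TPM in Huh7 NTC, and at 18.3 TPM in PLC/PRF/5 shSCD1 and 3.39 TPM in PLC/PRF/5 NTC. It was high in the same library as EGR1. The matricellular protein gene CYR61 had a log2 difference of 1.82 for Huh7 and 1.24 for PLC/PRF/5, and the antiproliferative gene BTG2 had 1.31 and 0.81. In limma 0 of 14 passed and 6 had an unadjusted p under 0.05, all higher, against 12.7% of all genes higher.

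Upstream, the EGF receptor ligand genes EREG, AREG and HBEGF were higher with shSCD1 in both lines, also in Huh7, where most of the 10 genes were lower. EREG was at 49.2 TPM in Huh7 shSCD1 and 2.63 TPM in Huh7 NTC, and at 188 TPM in PLC/PRF/5 shSCD1 and 44.1 TPM in PLC/PRF/5 NTC. AREG was at 54.9 TPM in Huh7 shSCD1 and 6.89 TPM in Huh7 NTC, and at 406 TPM in PLC/PRF/5 shSCD1 and 176 TPM in PLC/PRF/5 NTC. HBEGF stood at 0.67 on the log2 scale for Huh7 and 1.29 for PLC/PRF/5, and the receptor gene EGFR at 0.81 and 0.67. Of the 16 ligand and receptor genes listed, 10 were considered in both lines and 6 of these were higher in both, against 46.5% of all genes. With median-ratio scaling 6 of 10 were also higher in both, against 30.1% of all genes. EGF was lower in Huh7, at 0.57 TPM with shSCD1 and 1.43 TPM with NTC, and was under 1 TPM in PLC/PRF/5. The receptor gene FGFR1 stood at -0.71 for Huh7 and 0.30 for PLC/PRF/5, and ERBB3 at -0.13 and -0.58. These last 3 were named after their values were seen. In limma 0 of 12 passed, with 7 at an unadjusted p under 0.05, 6 of them higher and ERBB3 lower. Of all genes, 12.7% were higher and 5.24% lower at that threshold.

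Of 21 genes of the kinase cascade considered, 0 were 2-fold higher in either line and 1 was 2-fold lower, the scaffold gene KSR1 in Huh7 at -1.03. The shares of all genes past 2-fold, given above, are so small that these counts say nothing particular about the cascade. The median was 0.11 for Huh7 and 0.062 for PLC/PRF/5, beside 0.08 and 0.10 for all genes, or 0.012 and -0.082 with median-ratio scaling. SOS1, a RAS activator gene, had 0.55 and 0.60. Among 8 RAS and receptor inhibitor genes, DAB2IP had -1.06 and 0.11 and LZTR1 0.25 and 0.33, with medians of 0.016 and 0.17, or -0.078 and 0.029 with that scaling. MAPK3, which encodes ERK1 and was named after its values were seen, was at 43.5 TPM in Huh7 shSCD1 and 64.0 TPM in Huh7 NTC, and at 41.1 TPM in PLC/PRF/5 shSCD1 and 57.6 TPM in PLC/PRF/5 NTC. In limma 0 of 21 cascade genes passed (MAPK3 mean -0.51, adjusted p = 0.170). At an unadjusted p under 0.05 there were 2, SOS1 higher and MAPK3 lower, against 18% of all genes. Of the 8 inhibitor genes 0 passed, and 1, LZTR1, had an unadjusted p under 0.05, higher, again against 18% of all genes.

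**Figure D5:**
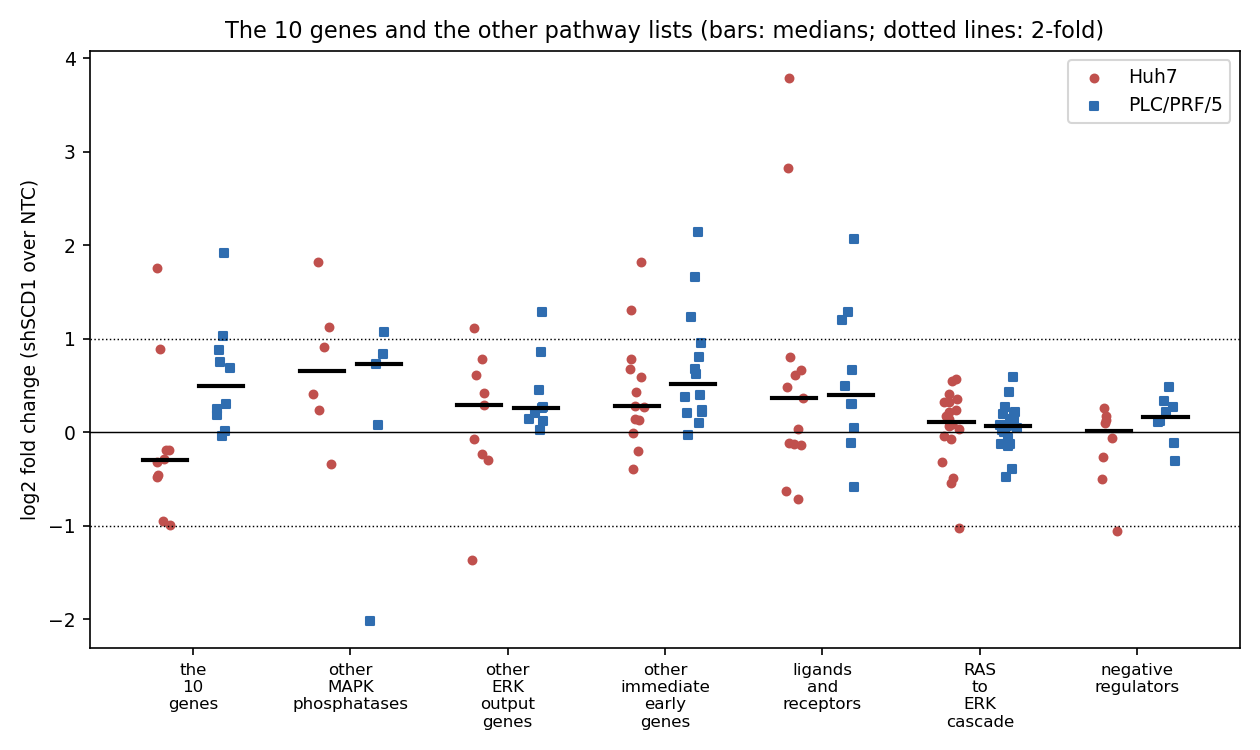
Log2 fold change (shSCD1 over NTC, TPM + 1) of each gene considered, circles for Huh7 and squares for PLC/PRF/5, by list, with black bars at the medians and dotted lines at 2-fold. The median of the 10 genes is -0.30 in Huh7 and 0.50 in PLC/PRF/5, while that of the other MAP kinase phosphatase genes is 0.66 and 0.73.

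The values rest on gene-level estimates whose sources of error differ by gene. In GENCODE 29 the longest transcript of 9 of the 10 genes shared under 1% of its 31-base words with another gene, and that of SPRED1 shared 2.75%. ETV4 overlaps DHX8 on the opposite strand, and whether counting used the strand is not given in the sources used here. DHX8 was at 46.2 TPM in Huh7 shSCD1 and 42.5 TPM in Huh7 NTC, and at 50.1 TPM in PLC/PRF/5 shSCD1 and 50.8 TPM in PLC/PRF/5 NTC, and its part in the ETV4 values was not tested. Antisense genes also overlap DUSP1, DUSP6, SPRY4 and ETV5, and DGKG, at 0.65 TPM or less in all 4 libraries, overlaps ETV5 on the same strand.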

How the data were processed

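The authors deposited 1 table per library with TPM by gene symbol, listed to 2 decimals, and each library sums to the same total. Cutadapt, RSEM (version 1.2.21) and hg19 are named, with no order, in the submitters' processing notes. The aligner, annotation and strandedness were not given in the sources used here. Abundances from RSEM are estimated by likelihood, and TPM fixes the total of each library, so a change in abundant transcripts moves all other values and depth cannot be recovered. No counting interval was therefore computed.

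Groups came from the sample titles. Log2 fold changes used a pseudocount of 1, and a gene was considered in a line at 1 TPM or more in at least 1 library. Limma 3.58.1 in R 4.3.3 was fitted two-sided to 13813 genes with 1 TPM or more in at least 2 libraries, with line and arm as terms. Variances were moderated by empirical Bayes with a trend, and p-values had Benjamini-Hochberg adjustment at 0.05. Cell line is the block because both libraries of a line share their cells. No label says whether the cultures were independent. The p-values reflect the spread between these libraries and the variance pooled over all genes, and not the spread between cultures. The fit was tested on simulated data in which some genes changed alike in both lines. That check required a small mean error and the right sign for the largest changes. It set no requirement on how many changes passed the adjusted p. Changes of opposite sign in the lines, as seen for most of the 10 genes, were not simulated. Members and lists were chosen with earlier results of these data known. Named genes were all members, SCD, and of each list the genes past 2-fold alike in both lines and up to 2 others with the largest absolute mean; any other gene is said to be chosen after its values were seen. The level of 1 marker gene is not reported here. Start windows came from RefSeq (GRCh38.p14), with 6 of 10 genes matched and used. A planned comparison of protein sequences was not made here. Alternatives were pseudocounts of 0.1 and 5, a filter of 5 TPM or none, median-ratio scaling, a 1.5-fold rule, no variance trend, and fits without the line or arm term. Python 3.11.15 and matplotlib 3.10.9 drew the plots.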

Additional observations from a re-analysis of the deposited data

Results flagged for a closer look

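The knockdown difference had opposite signs in Huh7 and PLC/PRF/5 for 9 of the 10 genes, and this difference between the lines was not tested, since each line has 1 library per arm. Log2 fold changes in Huh7 and PLC/PRF/5 were 0.89 and -0.041 for DUSP4, -0.99 and 0.75 for DUSP5, -0.19 and 1.03 for DUSP6, -0.48 and 0.31 for SPRY2. They were -0.95 and 0.69 for SPRY4, -0.28 and 0.19 for SPRED1, -0.45 and 1.91 for EGR1, and in the remaining genes -0.19 and 0.012 for ETV4 and -0.32 and 0.25 for ETV5. The sign for DUSP4 in PLC/PRF/5 rests on 64.7 TPM with shSCD1 against 66.6 TPM with NTC, and that for ETV4 on 246 against 244 TPM.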

How the results depend on the processing

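No value of a single gene that passed the 2-fold rule or the test turned its sign under the alternatives run, and ETV4 in PLC/PRF/5, which had not passed, was at -0.13 with median-ratio scaling. With a pseudocount of 5, 1 gene of the 10 was 2-fold higher in PLC/PRF/5. The same setting left 1 other MAP kinase phosphatase gene higher in Huh7 and 0 in PLC/PRF/5, 0 other ERK output genes higher in Huh7, and 0 cascade and 0 inhibitor genes lower in Huh7. A pseudocount of 0.1 gave 1 ligand or receptor gene lower in Huh7. Median-ratio scaling gave 2 genes of the 10 lower in Huh7, 1 higher in PLC/PRF/5, and 0 other MAP kinase phosphatase genes higher in PLC/PRF/5. A 1.5-fold rule gave 2 higher and 2 lower in Huh7, with 5 higher in PLC/PRF/5. Between the lines, 0 genes passed as higher and 0 as lower in Huh7 without a filter, and 1 passed as lower without the arm term. The causes were not tested. Across lines none of the 10 genes passed under any setting run, with adjusted p from 0.118 to 1. Without the cell line block (the replicate block) 0 passed as well. Leaving out a library would leave no residual degree of freedom in the blocked fit, and the values of each line alone stand in the report. The counts of signs under other settings were added after seeing the data. The unknown depth limits what a difference of a few TPM can show.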
